A study of Mus musculus with 22 samples.

Results

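The genes described here are 10 markers of hepatic stellate cells, measured in RNA from whole livers. Lrat and Reln stand for the quiescent state, and Des, Pdgfrb, Acta2, Tagln, Lum, Dcn, Mmp2 and Timp1 for the activated or myofibroblast state. They were picked by gene symbol, 10 of the 18716 rows of the deposited expression table. All 22 libraries came from livers labelled Fah-/-, a genotype without the enzyme Fah, which completes the breakdown of tyrosine, in which NTBC, a drug that blocks an earlier step, protects the liver. In 7 YC libraries the mice had received hepatocytes labelled td and were given an agent labelled YC over the 28 days that followed NTBC withdrawal. In 8 vehicle libraries the mice had received the same kind of cells and were given vehicle over the same 28 days. In 7 D0 libraries the liver was taken on day 0 and is labelled a normal liver. The animals' ages, the disrupted part of Fah, the origin of the td cells and the chemical nature of YC are not stated in the labels. The transplanted livers can hold both host cells and td hepatocytes, and the share of each was not measured here. The study asked whether YC makes transplanted hepatocytes grow through dedifferentiation, and the stellate cell genes describe another cell compartment of the same livers.

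Stellate cells lie between the sinusoidal endothelium and the hepatocytes, where in the resting state they store vitamin A as retinyl esters in lipid droplets. In an injured liver they lose these stores, divide in response to platelet-derived growth factor and turn into contractile cells that secrete collagen and other matrix, a change driven largely by transforming growth factor beta. Acta2, Tagln and Des are not exclusive to them: vascular smooth muscle expresses all of these, and portal fibroblasts share Lum, Dcn and much of the matrix program. In bulk tissue, fewer cells of a type and less RNA per cell cannot be told apart.

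The start regions of 3 of the genes are shown because they hold a motif linked in the muscle and fibrosis fields to contractile gene transcription, in genes whose levels differed in unlike ways between these groups. RefSeq promoter entries (GRCm38.p6) were matched for 5 of the 10 genes, Lrat, Reln, Des, Acta2 and Timp1. The windows below are the 250 bases before the RefSeq start on the gene's own strand, with capitals marking the MCAT element GGAATG, read on both strands, and the E-box CAGCTG.
Lrat: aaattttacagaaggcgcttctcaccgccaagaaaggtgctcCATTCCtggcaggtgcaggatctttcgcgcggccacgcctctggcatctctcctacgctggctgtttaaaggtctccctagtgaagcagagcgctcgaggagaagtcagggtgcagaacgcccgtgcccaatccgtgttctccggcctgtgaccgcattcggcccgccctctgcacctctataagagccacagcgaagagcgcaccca
Acta2: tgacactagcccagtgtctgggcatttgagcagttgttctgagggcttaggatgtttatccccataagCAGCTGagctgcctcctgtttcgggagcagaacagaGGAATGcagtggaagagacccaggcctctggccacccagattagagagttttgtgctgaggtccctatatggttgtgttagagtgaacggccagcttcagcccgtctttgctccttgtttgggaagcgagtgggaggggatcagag
Timp1: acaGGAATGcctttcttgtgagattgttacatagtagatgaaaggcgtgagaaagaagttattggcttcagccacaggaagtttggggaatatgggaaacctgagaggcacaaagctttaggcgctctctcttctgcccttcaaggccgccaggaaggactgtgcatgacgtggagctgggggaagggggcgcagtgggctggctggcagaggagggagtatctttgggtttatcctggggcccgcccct
The Lrat window is chr3:82903975-82904224 on the minus strand, the Acta2 window chr19:34255374-34255623 on the minus strand and the Timp1 window chrX:20869916-20870165 on the plus strand. The MCAT letters begin 146 bases before the Acta2 start and 247 bases before the Timp1 start, and lie in reverse, as CATTCC, 208 bases before the Lrat start. The E-box begins 182 bases before the Acta2 start, does not overlap its MCAT letters, and was also found 36 bases before the Des start. Of 32851 mouse promoter windows of the same length, 12.6% held GGAATG on either strand and 13.0% held CAGCTG. The CArG box bound by serum response factor, a pair of C, a run of A or T and a pair of G, has no exact match in the 5 windows (1.47% of all windows), but with at most 1 letter off it matched ccctatatgg 84 and ccttgtttgg 34 bases before the Acta2 start and ccaagaaagg 223 bases before the Lrat start (18.6% of all windows). The AP-1 letters TGANTCA (6.75%, both strands) and TATAAA (7.59%, gene strand) matched none of the 5. The annotated Acta2 gene begins at base 34255590, inside its window, so part of that stretch is transcribed in another annotated transcript.

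Levels are RPKM, reads scaled to transcript length and library size, so they can be set side by side between genes. Sequencing depth is unknown, and 9994 to 11762 genes reached 1 RPKM in a library. Fah ranged over 31.5 to 407 RPKM in YC libraries, 271 to 542 RPKM in vehicle libraries and 21.1 to 38.7 RPKM in D0 libraries, with YC 7 (31.5 RPKM) inside the D0 range and YC 6 (41.3 RPKM) just above it. The 6 hepatocyte markers summed to 30200 to 55200 RPKM in YC, 56300 to 88800 RPKM in vehicle and 44200 to 62200 RPKM in D0 libraries. Some libraries carried RNA of other tissues. In vehicle 3, 8 skeletal muscle genes summed to 4480 RPKM against at most 2.92 RPKM in any other vehicle library, 2.77 RPKM in any YC library and 0.441 RPKM in any D0 library. The 6 vascular smooth muscle markers summed to 13.9 RPKM in vehicle 3, 11.7 RPKM in vehicle 1 and 7.56 RPKM in D0 5, against 0.45 to 2.0 RPKM in YC libraries. Pancreatic acinar genes summed to 791 RPKM in YC 4 and 260 RPKM in vehicle 1. Transcripts of 4 Y-linked genes were present in all 8 vehicle libraries and in YC 1, YC 2 and YC 3, and absent or at most 0.0454 RPKM in YC 4 to YC 7 and in every D0 library. In vehicle minus D0 the group cannot be told apart from this difference, while YC minus D0 was also fitted on YC 4 to YC 7 and the 7 D0 libraries, all without these transcripts.

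All 10 genes passed the filter of 0.5 RPKM in at least 7 libraries. For Timp1 and Acta2 the pass rested mainly on YC and vehicle libraries, since most D0 values lay near or below 0.5 RPKM. Fold changes are differences of mean log2(RPKM + 0.5) with the standard error from limma, with calls made below 0.05 after Benjamini-Hochberg adjustment over all 12537 genes tested. In YC minus vehicle, 3 of the 10 genes were called higher (Lrat, Reln and Pdgfrb) and 0 lower, in a comparison where 50.7% of all genes were called, 44.6% higher and 6.14% lower. The median change of the 10 genes there was 0.21, against 0.31 over all genes. In vehicle minus D0, 7 were called higher (Des, Pdgfrb, Acta2, Tagln, Lum, Mmp2 and Timp1) and Lrat was called lower, where 58.1% of all genes were called, 28.2% higher and 29.9% lower. The median change of the 10 genes was 1.32, against 0 over all genes. In YC minus D0, 6 were called higher (Reln, Pdgfrb, Lum, Dcn, Mmp2 and Timp1) and 0 lower, where 53.4% of all genes were called, 41.2% higher and 12.3% lower, with a median change of 1.07 in the 10 genes and 0.25 over all genes. Among libraries without Y-linked transcripts the same 6 genes were called higher in YC minus D0 and 0 lower, with changes of 0.77 (Reln), 1.04 (Pdgfrb), 2.16 (Lum), 1.17 (Dcn), 2.07 (Mmp2) and 1.3 (Timp1). The 3 comparisons share groups, so these counts are not independent of each other.

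The whole YC profile was shifted upward relative to vehicle in the deposited values, and median-ratio scaling, which centres each library on the typical gene, moved the median over all genes to 0.01. On that scale 34.9% of genes were called in YC minus vehicle, 18.2% higher and 16.7% lower. Of the 10 genes only Lrat was then called higher, Des and Tagln were called lower, and the median change was -0.11. The calls in vehicle minus D0 were again 7 higher and 1 lower, where 60% of all genes were called, 29.2% higher and 30.8% lower. Those in YC minus D0 were again 6 higher and 0 lower, where 54.4% were called, 25.8% higher and 28.6% lower. Values of the 10 genes on both scales are therefore given for YC minus vehicle.

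**Figure D1:**
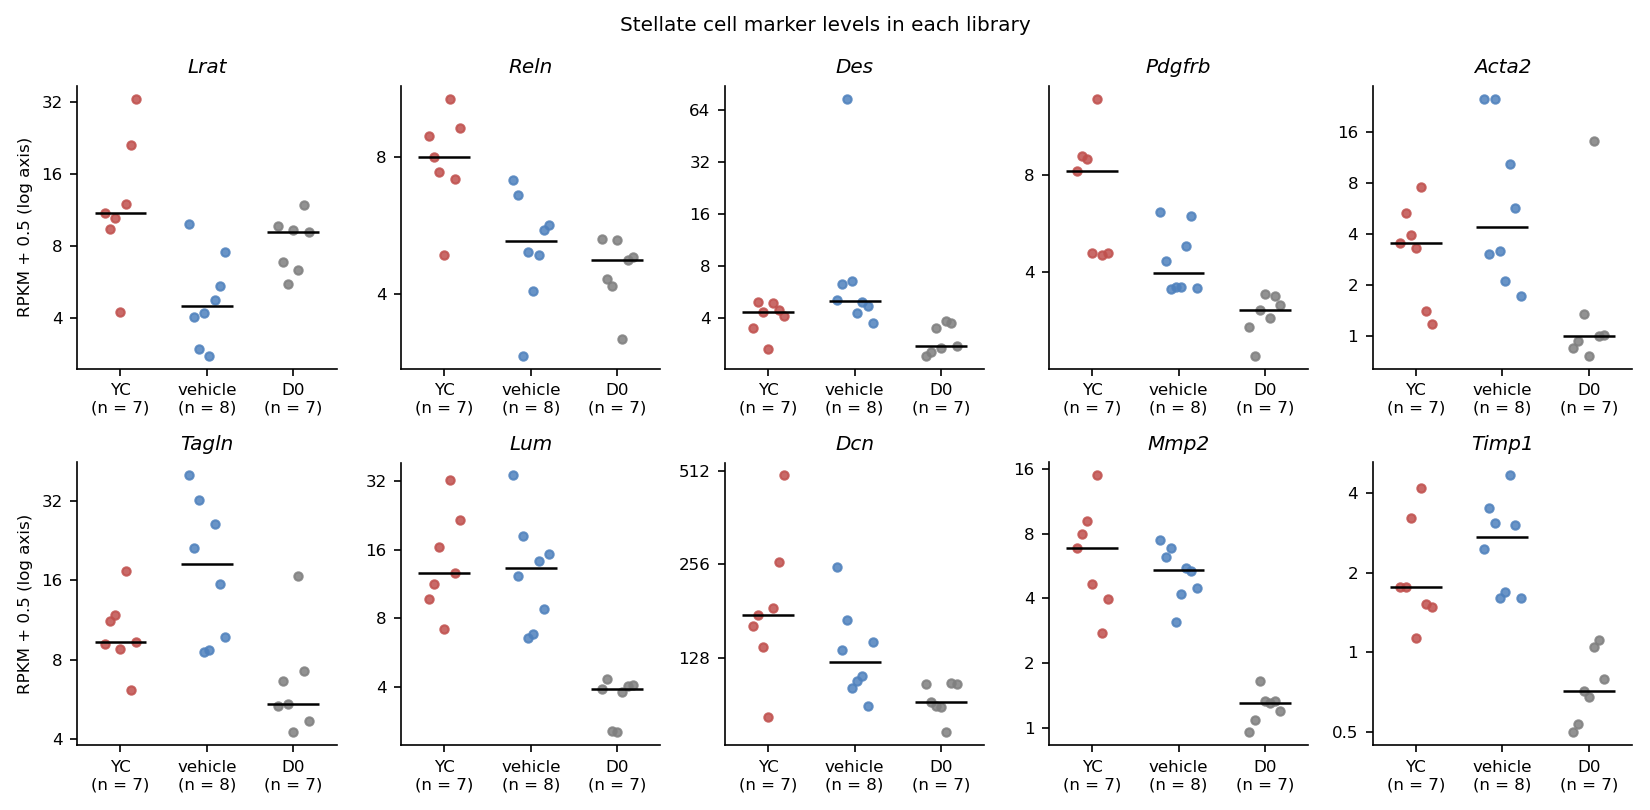
RPKM + 0.5 on a log axis for the 10 genes, 1 point per library and a bar at the median, in 7 YC, 8 vehicle and 7 D0 libraries. Lrat had medians of 10.4, 3.95 and 8.62 RPKM in YC, vehicle and D0 libraries, while Pdgfrb, Lum, Mmp2 and Timp1 had no D0 library as high as any YC or vehicle library. Overlap between groups was looked at only in the 10 genes, so the share of all genes without overlap is not known.

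Lrat (chr3:82892579-82903973, minus strand) encodes lecithin retinol acyltransferase, the enzyme that forms the retinyl esters stored in quiescent stellate cells. It had a lowest, median and highest level of 3.72, 10.4 and 32.4 RPKM in YC libraries, 2.27, 3.95 and 9.36 RPKM in vehicle libraries and 5.01, 8.62 and 11.3 RPKM in D0 libraries. The high YC values were YC 7 and YC 6 (20.5 RPKM), YC 4 was the low one, and 5 of 7 YC libraries lay above every vehicle library. Lrat was higher in YC than in vehicle, with a log2 fold change of 1.34 ± 0.32 (adjusted p = 0.00163), and of 1.02 ± 0.31 (adjusted p = 0.0134) with median-ratio scaling. Without YC 6 and YC 7 the change was 0.90 (adjusted p = 0.0126) as deposited, and 0.59 (adjusted p = 0.0887) with median-ratio scaling, where the call was lost. Among the 3 YC and 8 vehicle libraries with Y-linked transcripts it was 1.11 (adjusted p = 0.0147).

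In vehicle libraries Lrat was lower than in D0 libraries by a log2 fold change of -0.77 ± 0.32 (adjusted p = 0.0448), and 6 of 8 vehicle libraries lay below every D0 library. That call stood in 12 of the 22 fits that left out 1 library. These include the 7 fits without a YC library, which leave both compared groups, and so the change, as they were. The call was lost when any one of D0 1, D0 4, D0 6, D0 7 or vehicle 2 to vehicle 7 was left out, with changes of -0.80 to -0.66 and adjusted p of 0.0512 to 0.0916. Of 17 other settings 12 kept the call. It was lost with log2(RPKM + 1), without a filter, with quantile normalization, and without vehicle 3 and D0 5 on both scales. YC and D0 libraries overlapped, with 3 of 7 YC libraries above all D0 libraries and 1 below, and their difference of 0.57 ± 0.33 was not called (adjusted p = 0.154). Without YC 4, which held the pancreatic RNA, it was 0.83 (adjusted p = 0.0225), and without YC 6 and YC 7 under median-ratio scaling it was -0.19 (adjusted p = 0.576).

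Reln (chr5:21884454-22344702, minus strand) encodes reelin, a secreted glycoprotein used in liver as a marker of stellate cells. Reln had a lowest, median and highest level of 4.37, 7.46 and 10.2 RPKM in YC libraries, 2.43, 4.73 and 6.60 RPKM in vehicle libraries and 2.69, 4.24 and 4.79 RPKM in D0 libraries. YC 4 was again the lowest of its group, and the other 6 YC libraries lay above every vehicle and every D0 library. Reln was higher in YC than in vehicle by 0.64 ± 0.17 (adjusted p = 0.00437). With median-ratio scaling the change was 0.32 ± 0.16 and was not called (adjusted p = 0.141), so the call depended on the scaling. Among libraries with Y-linked transcripts it was 0.68 (adjusted p = 0.0274) as deposited. Reln was higher in YC than in D0 by 0.81 ± 0.18 (adjusted p = 0.000634), and by 0.49 ± 0.17 (adjusted p = 0.0191) with median-ratio scaling. Vehicle and D0 libraries overlapped, and their difference of 0.17 ± 0.17 was not called (adjusted p = 0.419). The lowest Reln values of the vehicle and D0 groups were those of vehicle 3 and D0 5, the libraries with the highest smooth muscle sums of their groups. Against D0, vehicle Lrat was thus called lower and Reln was not called, and the difference between the genes was not tested.

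Des (chr1:75360329-75368579, plus strand) encodes desmin, an intermediate filament protein of stellate cells and of all muscle. The lowest, median and highest levels of Des were 2.13, 3.81 and 4.45 RPKM in YC libraries, 3.23, 4.49 and 74.2 RPKM in vehicle libraries and 1.90, 2.24 and 3.32 RPKM in D0 libraries. The 74.2 RPKM came from vehicle 3, the library with skeletal muscle RNA, and the next vehicle library had 6.00 RPKM. Of the vehicle libraries, 7 of 8 lay above all D0 libraries, and 2 of 7 YC libraries lay below all vehicle libraries. Des was higher in vehicle than in D0 by 1.22 ± 0.42 (adjusted p = 0.0166), and by 0.73 (adjusted p = 0.00055) without vehicle 3. Between YC and vehicle the change was -0.79 ± 0.42 (adjusted p = 0.119) and was not called, and it was -0.30 (adjusted p = 0.117) without vehicle 3 and D0 5. With median-ratio scaling it was -1.10 ± 0.42 (adjusted p = 0.0439), and it was -0.61 ± 0.14 (adjusted p = 0.0027) on that scale without vehicle 3, the library with muscle RNA, and D0 5. YC minus D0 was 0.42 ± 0.43 (adjusted p = 0.425), and 0.42 ± 0.16 (adjusted p = 0.0278) without vehicle 3. As vehicle 3 is in neither of these groups, only the estimate of the spread changed.

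Pdgfrb (chr18:61045150-61085061, plus strand) encodes the receptor through which platelet-derived growth factor drives stellate cells to divide and migrate. Its lowest, median and highest levels were 4.01, 7.73 and 13.3 RPKM in YC libraries, 3.04, 3.47 and 5.63 RPKM in vehicle libraries and 1.70, 2.54 and 2.91 RPKM in D0 libraries. No YC or vehicle library was as low as any D0 library, and 4 of 7 YC libraries, YC 1, YC 2, YC 3 and YC 5, lay above all vehicle libraries. The other YC libraries, YC 4, YC 6 and YC 7, had 4.01 to 4.09 RPKM and lay within the vehicle range. Pdgfrb was higher in YC than in vehicle by 0.71 ± 0.21 (adjusted p = 0.00766). With median-ratio scaling the change was 0.39 ± 0.19 and the call was lost (adjusted p = 0.122). Among libraries with Y-linked transcripts it was 1.02 (adjusted p = 0.00142). Without YC 6 and YC 7 the change was 0.96 (adjusted p = 0.000526), and on the median-ratio scale 0.65 (adjusted p = 0.0056). Pdgfrb was higher in vehicle than in D0 by 0.56 ± 0.21 (adjusted p = 0.0247), a call lost without D0 2 (0.49, adjusted p = 0.0592) or vehicle 7 (0.50, adjusted p = 0.0528). It was higher in YC than in D0 by 1.27 ± 0.22 (adjusted p = 3.27e-05), and by 0.96 ± 0.20 (adjusted p = 0.000316) with median-ratio scaling.

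**Figure D2:**
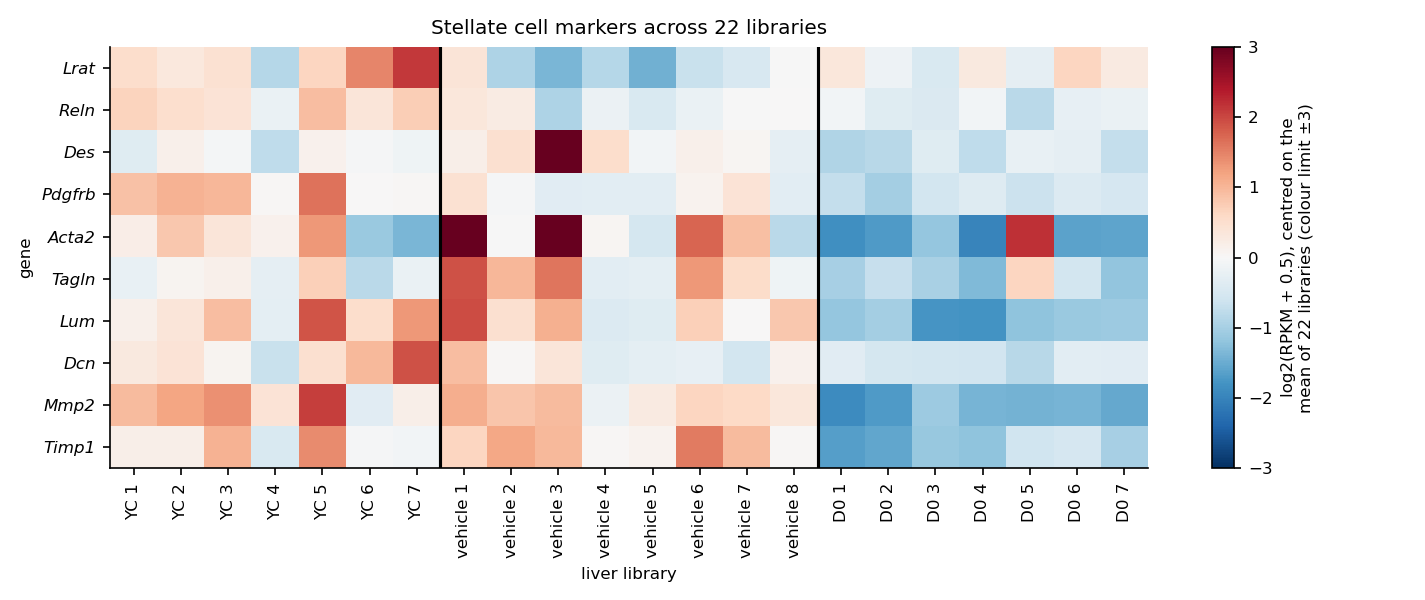
log2(RPKM + 0.5) of each gene centred on its mean over the 22 libraries, with red for higher and blue for lower values, genes in rows and libraries in columns in the order YC, vehicle, D0. Lrat is highest in YC 7 (32.4 RPKM), and Acta2 in vehicle 1, vehicle 3 and D0 5 stands apart from the rest of its row.

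Acta2 (chr19:34241090-34255590, minus strand) encodes alpha smooth muscle actin, the textbook marker of the myofibroblast and a major protein of vascular smooth muscle. Its lowest, median and highest levels were 0.683, 3.03 and 7.07 RPKM in YC libraries, 1.24, 3.92 and 24.4 RPKM in vehicle libraries and 0.271, 0.505 and 13.5 RPKM in D0 libraries. The high values were vehicle 3, vehicle 1 (24.2 RPKM) and D0 5, and the next D0 library had 0.858 RPKM, so the groups overlapped only through D0 5 where vehicle is set against D0. The low YC values were YC 7 and YC 6 (0.907 RPKM), which lay below all vehicle libraries. Acta2 was higher in vehicle than in D0 by 2.02 ± 0.66 (adjusted p = 0.0129), and by 2.57 (adjusted p = 0.000592) without D0 5. Without vehicle 1, vehicle 3 and D0 5 it was 1.87 (adjusted p = 0.000861). YC minus D0 was 1.14 ± 0.69 (adjusted p = 0.167) and was called without D0 5, at 1.69 (adjusted p = 0.0178).

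For YC against vehicle, Acta2 differed by -0.88 ± 0.66 and was not called (adjusted p = 0.277), nor with median-ratio scaling (-1.16 ± 0.65, adjusted p = 0.173). It was called in none of 40 alternatives, which gave changes of -1.28 to -0.18 and adjusted p of 0.113 to 0.794. Without vehicle 1, vehicle 3 and D0 5 the value was -0.18 ± 0.40 (adjusted p = 0.728). At this spread a difference of the size seen was not resolved, which does not show that the levels were alike.

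Tagln (chr9:45929619-45936058, minus strand) encodes transgelin, an actin-binding protein of smooth muscle and myofibroblasts. Its lowest, median and highest levels were 5.63, 8.82 and 16.9 RPKM in YC libraries, 8.05, 17.9 and 39.6 RPKM in vehicle libraries and 3.75, 4.95 and 16.2 RPKM in D0 libraries. The same libraries stood high as for Acta2: vehicle 1, vehicle 3 (31.8 RPKM) and D0 5, above the next D0 library at 6.78 RPKM. Tagln was higher in vehicle than in D0 by 1.42 ± 0.33 (adjusted p = 0.000858), and the call held in all 39 alternatives, with changes of 1.23 to 1.65. The YC minus vehicle change was -0.78 ± 0.33 (adjusted p = 0.0531) and missed the threshold. It was called lower with median-ratio scaling at -1.11 ± 0.31 (adjusted p = 0.00812), also on that scale without vehicle 1, vehicle 3 and D0 5 (-0.79, adjusted p = 0.0145). On the deposited scale Tagln was not called without those libraries. Among libraries with Y-linked transcripts the change was -0.70 (adjusted p = 0.216). As deposited, it was called without D0 5 (-0.78, adjusted p = 0.0337), vehicle 4 (-0.93, adjusted p = 0.0252), vehicle 5 (-0.92, adjusted p = 0.0241), vehicle 8 (-0.90, adjusted p = 0.0304) or YC 5 (-0.91, adjusted p = 0.0310). Because D0 5 is in neither group compared, leaving it out changed only the estimate of the spread. YC minus D0 was 0.64 ± 0.34 (adjusted p = 0.117), and 0.87 (adjusted p = 0.0263) without D0 5. The Tagln gene shares 108 exon bases with Pcsk7 on the opposite strand, which reached at most 13.9 RPKM. Whether reads were counted by strand is not given, so reads in that overlap cannot be assigned.

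**Figure D3:**
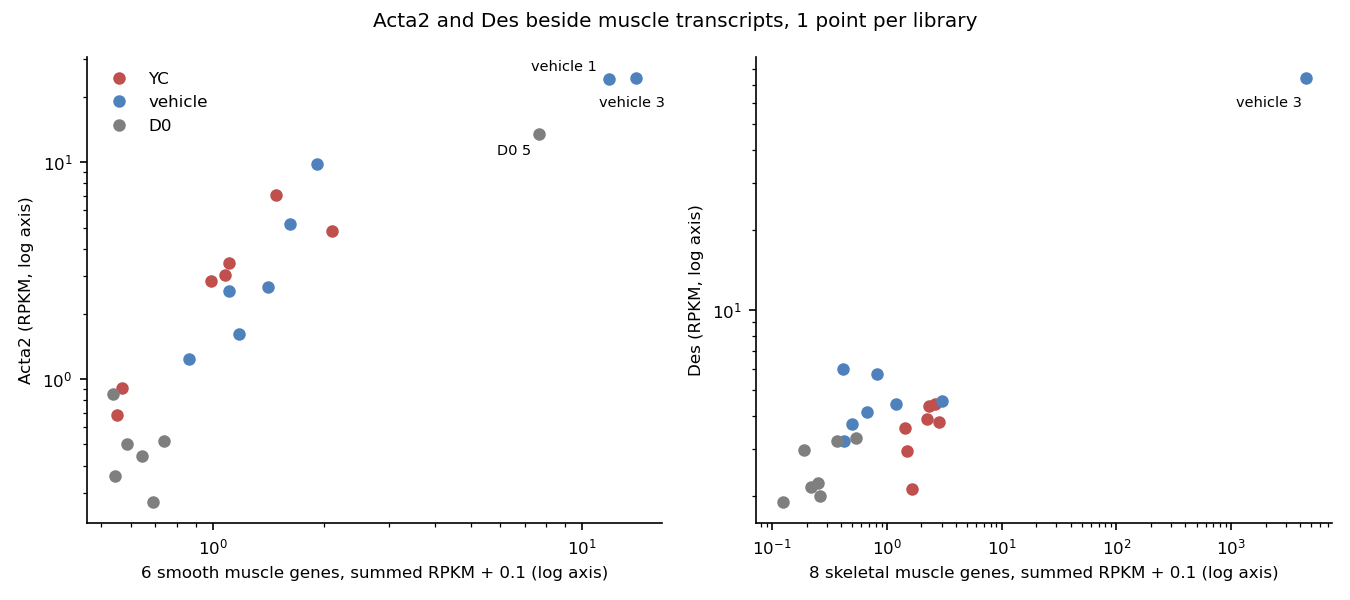
Acta2 RPKM against the summed RPKM of 6 vascular smooth muscle markers (left) and Des RPKM against that of 8 skeletal muscle genes (right), all on log axes, 1 point per library. Vehicle 1, vehicle 3 and D0 5 lie far to the upper right for Acta2, and vehicle 3 at 4480 RPKM of skeletal muscle RNA for Des.

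Some markers of other contractile and fibroblast cells also differed between the groups. The smooth muscle sum had a lowest, median and highest value of 0.45, 0.983 and 2.0 RPKM in YC libraries, 0.764, 1.41 and 13.9 RPKM in vehicle libraries and 0.438, 0.545 and 7.56 RPKM in D0 libraries. Of its 6 genes only Myh11, smooth muscle myosin, passed the filter, at 0.72 ± 0.26 in vehicle minus D0 (adjusted p = 0.0229) and -0.55 ± 0.26 in YC minus vehicle (adjusted p = 0.0819), where it was called with median-ratio scaling (-0.71, adjusted p = 0.0328). Myocd, the smooth muscle transcription cofactor, was listed at 0 in 2 YC, 1 vehicle and 4 D0 libraries and reached at most 0.0765 RPKM. Of 9 portal fibroblast markers, summing to 11.6 to 42.8 RPKM in YC, 20.8 to 125 RPKM in vehicle and 5.67 to 23.8 RPKM in D0 libraries, 8 were tested. Of these, 7 were called higher in vehicle minus D0, with a median of 1.28, while 1 was called higher and 3 lower in YC minus vehicle, with a median of -0.53, and 0 higher and 4 lower with median-ratio scaling. Without vehicle 1, vehicle 3 and D0 5 the counts were 1 and 3 and the median was -0.04. Dpt and Mfap4, matrix proteins of portal fibroblasts, changed by -1.46 ± 0.41 (adjusted p = 0.00555) and -1.52 ± 0.39 (adjusted p = 0.00276) in YC minus vehicle, and by -0.91 (adjusted p = 0.00894) and -1.16 (adjusted p = 0.0106) without those libraries. Myh11 was then at -0.19 (adjusted p = 0.334). The portal fibroblast marker Entpd2 went the other way, with medians of 9.35 RPKM in YC and 4.77 RPKM in vehicle libraries. Fbln2 and Gli1 also had higher medians in YC, and the rest of the list had lower ones. The 6 mesothelial markers summed to 2.10 to 24.7 RPKM in YC, 0.717 to 22.9 RPKM in vehicle and 0.159 to 4.79 RPKM in D0 libraries. The part of these cells in the Acta2, Tagln, Lum, Dcn and Mmp2 results was not tested.

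Lum (chr10:97565128-97572703, plus strand) encodes lumican, a small leucine-rich proteoglycan that organises collagen fibrils. Lum had lowest, median and highest levels of 6.68, 12.1 and 31.7 RPKM in YC libraries, 6.04, 12.8 and 33.4 RPKM in vehicle libraries and 2.04, 3.41 and 3.84 RPKM in D0 libraries. Every YC and every vehicle library lay above every D0 library, while the YC and vehicle ranges nearly coincided. Lum was higher in vehicle than in D0 by 1.84 ± 0.31 (adjusted p = 3.28e-05) and in YC than in D0 by 2.00 ± 0.32 (adjusted p = 1.66e-05), and both calls held in every alternative run, 39 and 40 of them. YC minus vehicle was 0.16 ± 0.31 (adjusted p = 0.681), and its direction turned with median-ratio scaling, at -0.17 ± 0.29 (adjusted p = 0.677).

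Dcn (chr10:97479609-97518143, plus strand) encodes decorin, a proteoglycan of the same family that binds collagen and transforming growth factor beta, and lies 46984 bases from Lum. It was the most abundant of the 10 genes in every group, with a lowest, median and highest level of 82.7, 176 and 494 RPKM in YC libraries, 89.3, 124 and 250 RPKM in vehicle libraries and 73.6, 91.9 and 106 RPKM in D0 libraries. YC 7 and YC 6 (261 RPKM) were the high YC libraries and lay above all vehicle libraries, whereas YC 4 lay below them all. Dcn was higher in YC than in D0 by 0.99 ± 0.27 (adjusted p = 0.00342), with 6 of 7 YC libraries above every D0 library. On the median-ratio scale without YC 6 and YC 7 this was 0.29 (adjusted p = 0.204). Vehicle minus D0 was 0.50 ± 0.26 (adjusted p = 0.107) although 6 of 8 vehicle libraries lay above every D0 library, and it was called without YC 7, at 0.50 ± 0.21 (adjusted p = 0.0441). YC 7 is in neither group there, so only the estimate of the spread changed. YC minus vehicle was 0.50 ± 0.26 (adjusted p = 0.115), and 0.15 ± 0.24 (adjusted p = 0.662) with median-ratio scaling. As deposited it was called without vehicle 1 (0.63, adjusted p = 0.0389) or YC 4 (0.69, adjusted p = 0.0181), but was 0.12 without YC 6 and YC 7 (adjusted p = 0.655). Within a library, the median of log2 Lum over Dcn was -4.02 in YC, -3.36 in vehicle and -4.91 in D0 libraries.

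Mmp2 (chr8:92827291-92853420, plus strand) encodes a gelatinase that cleaves denatured and basement membrane collagen and is made by activated stellate cells. Its lowest, median and highest levels were 2.27, 6.33 and 14.4 RPKM in YC libraries, 2.61, 4.94 and 6.97 RPKM in vehicle libraries and 0.458, 0.814 and 1.15 RPKM in D0 libraries. All YC and all vehicle libraries lay above every D0 library, YC 5 was the high library of its group, and YC 6 the low one. The vehicle increase over D0 was 2.06 ± 0.26 (adjusted p = 7.19e-07) and the YC increase over D0 was 2.32 ± 0.27 (adjusted p = 1.57e-07). YC minus vehicle was 0.26 ± 0.26 (adjusted p = 0.407) and turned to -0.05 ± 0.24 (adjusted p = 0.891) with median-ratio scaling. Without YC 6 and YC 7 it was called as deposited, at 0.63 ± 0.22 (adjusted p = 0.0233), but not on the median-ratio scale (0.33, adjusted p = 0.18).

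Timp1 (chrX:20870166-20874735, plus strand) encodes a tissue inhibitor of metalloproteinases that slows matrix breakdown in fibrosis. Its lowest, median and highest levels were 0.639, 1.27 and 3.70 RPKM in YC libraries, 1.11, 2.24 and 4.17 RPKM in vehicle libraries and 0, 0.215 and 0.616 RPKM in D0 libraries. It was the least abundant of the 10 genes by median in every group, and D0 1 was listed at 0. No D0 library was as high as any YC or vehicle library, and 3 of 7 YC libraries lay below all vehicle libraries. Timp1 was higher in vehicle than in D0 by 1.77 ± 0.27 (adjusted p = 9e-06) and in YC than in D0 by 1.4 ± 0.28 (adjusted p = 0.000195), on a scale that understates the change of low genes. YC minus vehicle was -0.37 ± 0.27 (adjusted p = 0.259), -0.63 ± 0.26 (adjusted p = 0.0589) with median-ratio scaling and -0.76 ± 0.26 (adjusted p = 0.0264) with quantile normalization. The gene lies inside Syn1 on the opposite strand, with 0 shared exon bases, and Syn1 reached at most 0.787 RPKM.

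**Figure D4:**
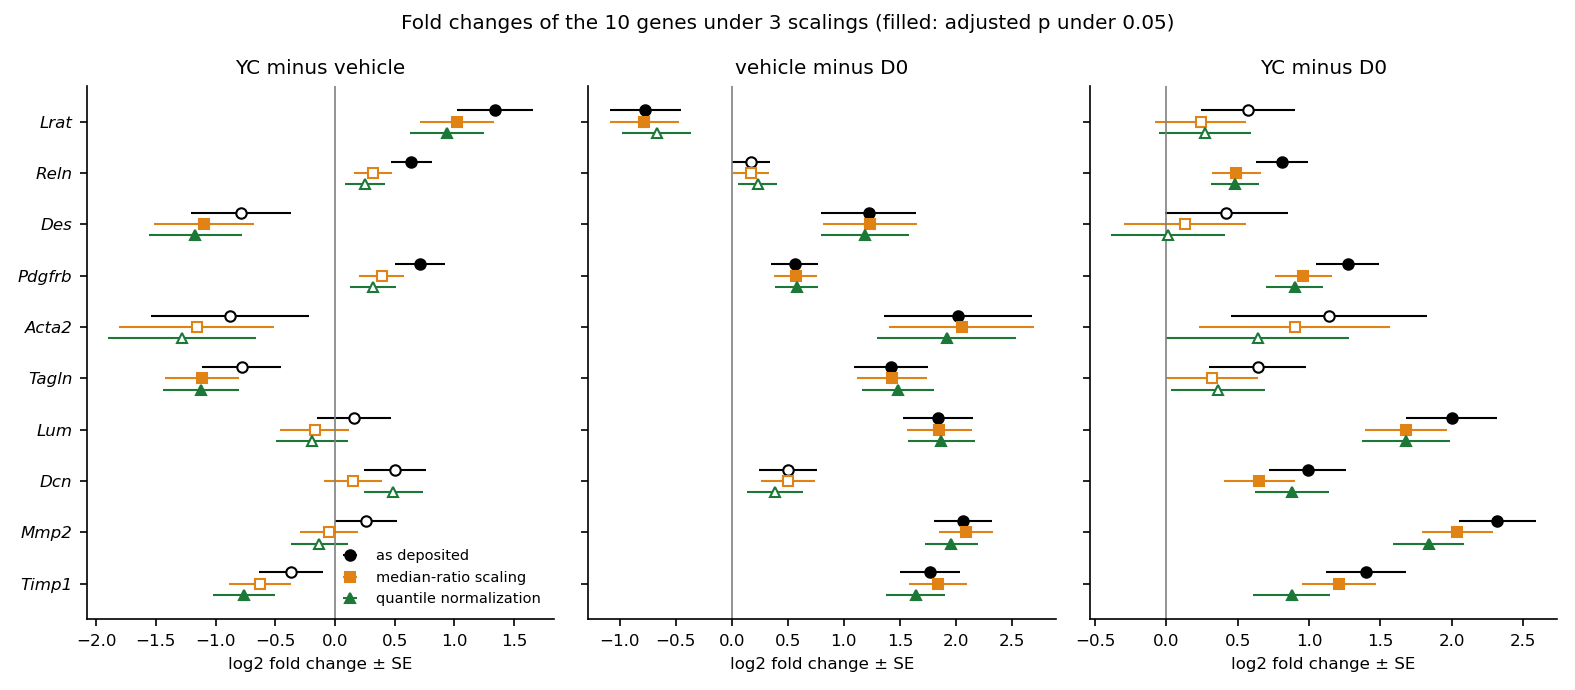
log2 fold change ± standard error of the 10 genes in the 3 comparisons, with values as deposited (circles), median-ratio scaled (squares) and quantile normalized (triangles), filled where the adjusted p was under 0.05. In YC minus vehicle Lrat is filled under all 3 scalings, at 1.34, 1.02 and 0.94, while Des and Tagln are filled below 0 under both rescalings.

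Ratios within a library do not change when all its values are multiplied by 1 factor, as in median-ratio scaling, though they do under quantile normalization, and they set the activation genes against Lrat or Pdgfrb in the same RNA. The 9 ratios were chosen with earlier results of these data known, and YC and vehicle means of the log2 ratio were compared by exact two-sided permutation tests with Benjamini-Hochberg adjustment over the 9. Log2 Tagln over Lrat had a lowest, median and highest value of -1.88, 0.19 and 1.16 in YC libraries, 0.40, 1.97 and 3.69 in vehicle libraries and -1.24, -0.74 and 1.48 in D0 libraries. Tagln was above Lrat in 4 of 7 YC libraries, 8 of 8 vehicle libraries and 1 of 7 D0 libraries, the last being D0 5. The mean was lower in YC than in vehicle by a log2 difference of -2.26 (exact permutation p = 0.00124, adjusted 0.00559), and by -1.61 (exact permutation p = 0.0101, adjusted 0.0303) without YC 6 and YC 7.

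Tagln over Pdgfrb was 0.17, 0.41 and 1.11 in YC libraries, 1.38, 2.01 and 3.38 in vehicle libraries and 0.37, 1.13 and 2.77 in D0 libraries, so YC and vehicle did not overlap. Only the 9 chosen ratios were looked at, so the share of all gene pairs without overlap is not known. The Tagln over Pdgfrb difference between YC and vehicle was -1.58 (exact permutation p = 0.000311, adjusted 0.0028), and it was -1.25 without vehicle 1 and vehicle 3 (exact permutation p = 0.000583, adjusted 0.00524). Acta2 over Lrat was -5.57, -1.53 and -0.40 in YC libraries, -2.50, -0.19 and 3.31 in vehicle libraries and -5.03, -4.05 and 1.22 in D0 libraries, and 0 of 7 YC, 4 of 8 vehicle and 1 of 7 D0 libraries had more Acta2 than Lrat. The Acta2 over Lrat difference of -2.45 between YC and vehicle passed (exact permutation p = 0.0225, adjusted 0.0338) but not without YC 6 and YC 7 (-1.31, exact permutation p = 0.138, adjusted 0.207) nor without vehicle 1 and vehicle 3 (-1.75, exact permutation p = 0.0967, adjusted 0.145).

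Lum over Lrat was lower in YC than in vehicle by -1.28 (exact permutation p = 0.00544, adjusted 0.0163), a result that did not pass adjustment without YC 6 and YC 7 (-0.90, exact permutation p = 0.0326, adjusted 0.0734) or without vehicle 1 and vehicle 3 (-1.0, exact permutation p = 0.0245, adjusted 0.0551). Mmp2 over Lrat (-1.17, exact permutation p = 0.0777, adjusted 0.0999), Pdgfrb over Lrat (-0.68, exact permutation p = 0.234, adjusted 0.264) and Lum over Dcn (-0.33, exact permutation p = 0.303, adjusted 0.303) did not pass. Timp1 over Mmp2, the inhibitor set against the protease, was lower in YC than in vehicle by -0.78 (exact permutation p = 0.0162, adjusted 0.0291), with means of -2.03 ± 0.55 (SD, n = 7) and -1.25 ± 0.53 (SD, n = 8), and remained below the threshold without YC 6 and YC 7 (exact permutation p = 0.00622, adjusted 0.028) and without vehicle 1 and vehicle 3 (exact permutation p = 0.0152, adjusted 0.0455). Acta2 over Pdgfrb was lower by -1.77 (exact permutation p = 0.0131, adjusted 0.0291), but not below the threshold without YC 6 and YC 7 (exact permutation p = 0.0707, adjusted 0.127) or without vehicle 1 and vehicle 3 (exact permutation p = 0.0385, adjusted 0.0692).

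**Figure D5:**
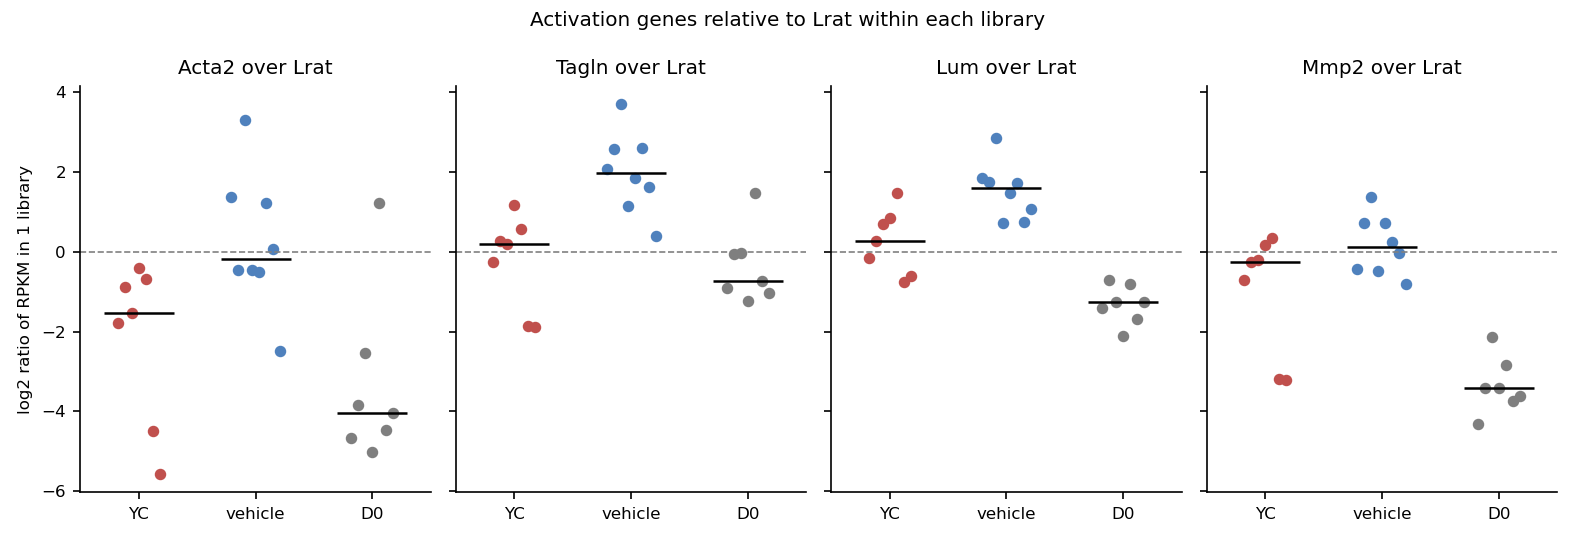
log2 ratio of Acta2, Tagln, Lum and Mmp2 to Lrat within each library, 1 point per library and a bar at the median, with a dashed line at equal RPKM. Tagln over Lrat lies above the line in 8 of 8 vehicle libraries, 4 of 7 YC libraries and 1 of 7 D0 libraries.

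The wider programs around these genes were followed with lists of other genes, whose shares of calls are to be read against the percentages of all genes given above. Of 14 other markers of quiescent stellate cells 13 were tested. For YC against vehicle 5 were called higher and 0 lower, with a median of 0.34 against 0.31 over all genes, and with median-ratio scaling 1 was higher and 1 lower. The matrix protein Ecm1 had 115 ± 40.2 RPKM in YC libraries (SD, n = 7) and 52.1 ± 9.41 RPKM in vehicle libraries (SD, n = 8), a change of 1.07 ± 0.19 (adjusted p = 7.8e-05) that was 0.73 (adjusted p = 0.00451) with median-ratio scaling. Ngfr, a neurotrophin receptor of stellate cells, was higher by 0.75 ± 0.22 (adjusted p = 0.00722), a call lost with median-ratio scaling (0.48, adjusted p = 0.0968). In vehicle minus D0 the same list gave 4 higher and 2 lower. The stellate transcription factor Hand2 was higher in vehicle by 0.76 ± 0.17 (adjusted p = 0.000641).

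Of 19 genes of retinoid storage and signalling 14 were tested. In YC minus vehicle 5 were called higher and 0 lower (median 0.22), and with median-ratio scaling 1 higher and 3 lower. Cyp26b1, which degrades retinoic acid, had 9.83 ± 4.87 RPKM in YC and 2.14 ± 1.23 RPKM in vehicle libraries, a change of 1.94 ± 0.38 (adjusted p = 0.000267) that was 1.63 (adjusted p = 0.00227) with median-ratio scaling. In vehicle minus D0 the list gave 4 higher and 4 lower. Lipoprotein lipase, Lpl, was higher there by 2.80 ± 0.28 (adjusted p = 3.92e-08), with 69.9 ± 31.8 RPKM in vehicle and 9.44 ± 4.30 RPKM in D0 libraries. Of 5 tested genes of 7 for reelin receptors and signalling, 4 were called higher and 1 lower in YC minus vehicle (median 0.48), and 2 higher and 1 lower with median-ratio scaling. The reelin receptor Vldlr rose by 1.06 ± 0.28 (adjusted p = 0.00342) and the kinase Src by 1.5 ± 0.23 (adjusted p = 2.14e-05), and both calls stood with median-ratio scaling, at 0.79 (adjusted p = 0.0255) and 1.19 (adjusted p = 0.000217).

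Of 15 other contractile genes 9 were tested, with 2 called higher and 0 lower in YC minus vehicle (median 0.17) and 0 higher and 2 lower with median-ratio scaling. Tpm1, a tropomyosin, was called higher in YC at 1.05 ± 0.37 (adjusted p = 0.0211) but its call was lost with median-ratio scaling (0.71, adjusted p = 0.124). The Tpm1 call was also lost as deposited without YC 6 and YC 7 (0.91, adjusted p = 0.0814). Tpm1 had 130 ± 35.8 RPKM in YC and 93.3 ± 131 RPKM in vehicle libraries. Without vehicle 1, vehicle 3 and D0 5 its change as deposited was 1.55 (adjusted p = 8e-06). In vehicle minus D0, 4 were higher and 0 lower. Myl9, a myosin light chain, was higher there by 1.77 ± 0.42 (adjusted p = 0.00117). All 6 PDGF ligand and receptor genes were tested, with 3 higher and 1 lower in YC minus vehicle, 1 higher and 1 lower there with median-ratio scaling, and 3 higher and 0 lower in vehicle minus D0. Pdgfra, the partner receptor of Pdgfrb, was higher in YC by 0.84 ± 0.20 (adjusted p = 0.00132), and by 0.56 (adjusted p = 0.0178) with median-ratio scaling. Pdgfrl was lower in YC by -0.61 ± 0.19 (adjusted p = 0.00957), and by -0.78 (adjusted p = 0.00197) with median-ratio scaling, and higher in vehicle than in D0 by 0.91 ± 0.19 (adjusted p = 0.000251).

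Of 18 tested genes of 19 for transforming growth factor beta, 12 were called higher and 0 lower in YC minus vehicle (median 0.51), and 5 higher and 2 lower with median-ratio scaling (median 0.21 against 0.01 over all genes). The receptor Tgfbr2 had 32.0 ± 7.63 RPKM in YC and 10.3 ± 2.88 RPKM in vehicle libraries, a change of 1.60 ± 0.18 (adjusted p = 9.17e-07) that was 1.26 with median-ratio scaling and still called. In vehicle minus D0, 6 were higher and 7 lower. Smad3, which carries the receptor signal to the nucleus, was lower in vehicle than in D0 by -1.36 ± 0.18 (adjusted p = 1.07e-06), while the ligand Tgfb3 was higher by 1.18 ± 0.26 (adjusted p = 0.000482).

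Of 22 other myofibroblast matrix genes 17 were tested, and 13 were called higher and 0 lower in vehicle minus D0, with a median of 1.34 against 0 over all genes. In YC minus D0, 16 were called higher and 0 lower, with a median of 1.51 against 0.25. The fibrillar collagens Col1a1 (2.38 ± 0.40, adjusted p = 2.79e-05) and Col3a1 (2.37 ± 0.37, adjusted p = 1.15e-05) rose to 5.78 ± 2.81 and 23.9 ± 12.2 RPKM in vehicle libraries, against 0.650 ± 0.332 and 3.81 ± 1.09 RPKM in D0 libraries. Between YC and vehicle 3 were higher and 2 lower (median 0.18). With median-ratio scaling the counts were 2 and 4 (median -0.11), and without YC 6 and YC 7 they were 9 and 1. Mgp, an inhibitor of calcification, was lower in YC by -1.43 ± 0.39 (adjusted p = 0.00396) and S100a6, a calcium-binding protein, higher by 1.37 ± 0.38 (adjusted p = 0.00446), and after median-ratio scaling Mgp was at -1.74 (adjusted p = 0.00128) and S100a6 at 1.03 (adjusted p = 0.0261). Of 10 other small leucine-rich proteoglycans 5 were tested, with a median of 0.02 in YC minus vehicle, and of -0.33 with median-ratio scaling. Against D0, 2 were higher in vehicle, Bgn (0.97 ± 0.16, adjusted p = 1.75e-05) and Fmod (1.09 ± 0.40, adjusted p = 0.0218), and 0 lower. Of 16 other metalloproteinases and inhibitors 13 were tested, and 9 were higher and 1 lower in vehicle minus D0 (median 0.96), against 2 higher and 0 lower in YC minus vehicle, or 0 higher and 1 lower with median-ratio scaling. Mmp12, a macrophage elastase, changed most in vehicle minus D0, at 3.98 ± 0.20 (adjusted p = 1.16e-12), with 10.9 ± 2.04 RPKM in vehicle and 0.220 ± 0.117 RPKM in D0 libraries. The 10 macrophage markers summed to 271 to 638 RPKM in YC, 349 to 1180 RPKM in vehicle and 105 to 205 RPKM in D0 libraries, and 9 of the 10 were called higher in vehicle minus D0; their part in these results was not tested.

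For Lrat, Acta2, Dcn and Timp1, the genes with the most similar profile over the 22 libraries were found by the root mean square difference of centred log2(RPKM + 0.5) values. For Acta2, whose own root mean square deviation was 1.51, they were Myl9 (0.56), Tnnt2 (0.86) and Fbln1 (0.89), and Tagln lay at 0.79 among the 10 genes. For Timp1, with a deviation of 0.93, they were Serpinh1 (0.33), the collagen chaperone, Sftpd (0.35) and Ptgis (0.37), and the closest of the 10 was Mmp2 (0.54). For Lrat, with a deviation of 0.85, they were Mpp5 (0.38), Ccp110 (0.40) and Zfp426 (0.40), and for Dcn, with 0.64, Prkar2b (0.24), Tmem65 (0.29) and Ccdc122 (0.29). The closest of the 10 genes to Lrat and to Dcn was Reln in both cases, at 0.63 and 0.49. All these distances come from the same 22 libraries, including those with muscle RNA, and depend on how the libraries are scaled.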

How the data were processed

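Polyadenylated RNA from frozen livers, isolated with TRIzol, was sequenced, per the labels' protocols. The authors deposited 1 table of RPKM values with a column per library. The submitters' processing notes list TopHat 1.4.1, Cufflinks 1.3.0 and build mm10, without saying which of them gave the RPKM values, on which annotation, or with what use of strand. Depth is unknown: the best step sizes tried put 32.5% to 37.9% of low values within 0.03 of a whole read, in some libraries another size did as well, and no count test was run. No label says that replicates are separate animals, and p-values then reflect only variation among these libraries, possibly technical.

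The 12537 genes that reached 0.5 RPKM in 7 or more of 22 libraries were fitted as log2(RPKM + 0.5) in 1 model of 3 groups with limma 3.58.1 and statmod 1.5.0 in R 4.3.3 (eBayes with trend and robust), with two-sided Benjamini-Hochberg adjusted p over all of them. The fit was tested on simulated data. Numbers of replicates are shared between groups, but the correlation of same-numbered libraries ran from -0.39 to 0.23, so no block was used. Other steps used Python 3.11.15, numpy 2.4.6, pandas 2.3.3 and matplotlib 3.10.9. Gene coordinates are from GENCODE M21 (mm10).

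The 10 genes and the lists were chosen with earlier results of these data known, and the skeletal muscle and pancreas lists after their values were seen. Genes named beside the 10 were, from each list and for each of YC against vehicle and vehicle against D0, the 2 called genes with the largest change and a mean of at least 1 RPKM in a group, the most abundant gene of lists for other cell types, and the 3 nearest profiles; not all are reported here, and Myocd was named after its values were seen. Alternatives were other pseudocounts, filters, scalings, weights, a replicate block and libraries left out. Those without vehicle 1, vehicle 3 or D0 5 together, median-ratio scaling with libraries left out, and YC minus D0 without Y-linked transcripts, were added after the data were seen, as were the ratio tests.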

Additional observations from a re-analysis of the deposited data

Results flagged for a closer look

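Each of the 30 sets of 1 gene in 1 group was checked for a library far from the others by Dixon's gap ratio, which chance passes in about 1 in 20 sets, and 3 sets were flagged. The Acta2 and Tagln flags came from the same library, D0 5. Des in vehicle 3 was 74.2 RPKM, the highest of 8 vehicle libraries. Acta2 in D0 5 was 13.5 RPKM, the highest of 7 D0 libraries. Tagln in D0 5 was 16.2 RPKM, also the highest of 7 D0 libraries. In vehicle 3 the 8 skeletal muscle genes summed to 4480 RPKM, and in D0 5 the 6 vascular smooth muscle genes summed to 7.56 RPKM against at most 0.639 RPKM in the other D0 libraries.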

How the results depend on the processing

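The 1181 values of the 10 genes under alternatives kept direction and side of the threshold in 1096 cases, lost a call in 32, gained a call in 43 and turned direction in 10. These values, and the counts of alternatives given for single genes, include fits without 1 library of the group not compared. Such fits leave the change as it was and alter only the estimate of the spread, so their kept direction was fixed in advance. The turned values were those of Lum in YC minus vehicle with median-ratio scaling (-0.17), also without vehicle 3 and D0 5 (-0.09) or without YC 6 and YC 7 (-0.24), with quantile normalization (-0.19), without YC 5 (-0.03, with 0.37 the highest when 1 library was left out) and in libraries with Y-linked transcripts alone (-0.05). Mmp2 turned with median-ratio scaling (-0.05) and quantile normalization (-0.13). Median-ratio scaling without YC 6 and YC 7 turned Dcn in YC minus vehicle (-0.21) and Lrat in YC minus D0 (-0.19). None of these was called before or after the turn, and the cause was not tested. Over all genes, YC minus vehicle gave 5587 higher and 770 lower as deposited, and 2280 higher and 2098 lower with median-ratio scaling. Counts of called genes were 3816 in YC minus vehicle, 4061 in vehicle minus D0 and 3560 in YC minus D0 when the mean over libraries had to reach 5 RPKM, so that fewer genes were tested, and 3860 in YC minus vehicle with median-ratio scaling without vehicle 3 and D0 5. Leaving out 1 library gave 5609 to 6967, 6850 to 7701 and 6254 to 7040. With the replicate block the counts were 6005, 7129 and 6486, and Tagln in YC minus vehicle was called at -0.90 (adjusted p = 0.0387); the numbers mark no known pairing. No library with Y-linked transcripts is in D0, so that alternative has no value there; YC minus D0 without such libraries gave 5248 calls. The Lrat call in YC minus vehicle was lost in 1 of 40 alternatives and the Acta2 call in vehicle minus D0 in 1 of 39, with array weights (1.5, adjusted p = 0.0584). The groups of 7 and 8 and the low RPKM of Timp1 and Acta2 in D0 limit precision.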

Other observations

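Among 7 neutrophil markers, all tested, 3 were called higher and 0 lower in YC minus vehicle by limma, a share near that of all genes called higher (44.6%), with a median of 0.84 against 0.31 over all genes. With median-ratio scaling 2 were higher and 0 lower. Mpo, myeloperoxidase, had 6.10 ± 4.52 RPKM in YC libraries (SD, n = 7) and 0.646 ± 0.46 RPKM in vehicle libraries (SD, n = 8), a limma change of 2.29 ± 0.35 (adjusted p = 1.99e-05), and neutrophil elastase, Elane, changed by 2.04 ± 0.34 (adjusted p = 5.18e-05). The summed level of the 7 markers was highest in YC 7, at 383 RPKM, which was also the library with the highest Lrat and Dcn. Of 7 bile duct markers, all tested, 3 were called higher and 0 lower in YC minus vehicle, again near the share of all genes, and 1 and 0 with median-ratio scaling. The claudin Cldn4, from that list, changed by 2.99 ± 0.32 (limma adjusted p = 5.31e-07). Spp1, its most abundant gene, changed by 0.01 ± 0.25 (limma adjusted p = 0.978).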
